A study of Homo sapiens with 8 samples.

Results

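LSD1 summits from CUT&RUN were examined at the replication-dependent histone gene clusters of MDA-MB-231, a line of human breast cancer cells. Members were the summits of the 4 LSD1 lists that lay, in the hg19 build (GRCh37), in any of 3 windows set by position. The larger HIST1 window spanned chr6:26015000-26290000, the smaller HIST1 window chr6:27770000-27870000 and the HIST2 window chr1:149780000-149865000. Together they held 98 of the 201526 summits. When summits of any list at most 500 bp apart were joined, these formed 33 of the 68148 regions of chromosomes 1 to 22 and X. The study compared parental cells with RCOR2-KO1 cells, in which RCOR2 was disrupted by CRISPR/Cas9, with 2 libraries of each. Its methods refer to earlier work for knockout in MDA-MB-231 cells. After the steps for another cell line they say that several clones were mixed. Whether the RCOR2-KO1 cells of this assay were such a mix is not stated. The labels name no treatment of either genotype beside growth in DMEM with serum. All 4 libraries were made with the anti-LSD1 antibody of Cell Signaling Technology. The authors used libraries with rabbit IgG as input, and deposited peak summits, each a single base, with the −log10 of a p or q value. This −log10 value grows with sequencing depth, which is unknown here, so a summit is described by its percentile, the share of its own list at or below its value. The methods say that CUT&RUN was repeated, but neither they nor the labels say whether replicates came from separate cultures, so p-values measure only the spread between libraries, which may be technical.

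Replication-dependent histone genes encode the linker histone H1 and the core histones H2A, H2B, H3 and H4, which package newly made DNA. They are small genes without introns, transcribed in S phase, and their mRNAs end in a stem loop instead of a poly(A) tail. Most of the human genes lie in the HIST1 cluster of chromosome 6 and the smaller HIST2 cluster of chromosome 1. LSD1 (KDM1A) is a demethylase that removes methyl groups from lysine 4 of histone H3, a mark of promoters and enhancers, and works in complexes with a CoREST protein such as RCOR2 and with HDAC1 or HDAC2. Genes of a histone class are similar in coding sequence. How reads with several possible places were treated is not given in the sources used here. The part of such reads in the summit lists was not tested.

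The RefSeq table (GRCh38.p14) lists 67 protein-coding genes with an older HIST1 or HIST2 symbol. They comprise 6 H1, 16 H2A, 17 H2B, 14 H3 and 14 H4 genes, with 55 on chromosome 6 and 12 on chromosome 1. These genes were taken by symbol and not by position. Whether all of them lie in the windows was not tested, so some may lie outside. The table is of another build than the summits, so no summit was assigned to a gene. Which of these genes lie under an LSD1 summit is not shown here. To show what the promoters in these clusters look like, the 200 bases before the start are given for 1 gene of each class. Each is the first of its class along chromosome 6 from H1-1 onward with a promoter in the RefSeq table. Bases are in capitals where they match, on either strand, TATAA (the TATA box), CCAAT (the CCAAT box), ATTTGCAT (the octamer) or AAACACA (the H1 box).
H1-1: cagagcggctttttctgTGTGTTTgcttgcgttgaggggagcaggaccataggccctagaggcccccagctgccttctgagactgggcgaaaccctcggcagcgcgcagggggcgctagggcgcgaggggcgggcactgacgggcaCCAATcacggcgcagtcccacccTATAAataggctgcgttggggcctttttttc
H2AC4: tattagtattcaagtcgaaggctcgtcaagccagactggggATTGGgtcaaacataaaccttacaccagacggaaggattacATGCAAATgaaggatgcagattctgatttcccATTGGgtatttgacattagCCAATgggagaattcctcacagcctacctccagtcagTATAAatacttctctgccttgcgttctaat
H2BC3: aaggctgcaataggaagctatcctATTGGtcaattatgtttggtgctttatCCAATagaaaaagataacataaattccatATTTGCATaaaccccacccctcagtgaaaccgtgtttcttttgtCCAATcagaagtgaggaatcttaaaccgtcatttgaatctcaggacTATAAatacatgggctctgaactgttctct
H3C1: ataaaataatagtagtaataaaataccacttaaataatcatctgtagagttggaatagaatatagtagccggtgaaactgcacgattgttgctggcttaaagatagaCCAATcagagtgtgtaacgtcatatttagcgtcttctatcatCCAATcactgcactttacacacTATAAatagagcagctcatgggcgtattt
H4C2: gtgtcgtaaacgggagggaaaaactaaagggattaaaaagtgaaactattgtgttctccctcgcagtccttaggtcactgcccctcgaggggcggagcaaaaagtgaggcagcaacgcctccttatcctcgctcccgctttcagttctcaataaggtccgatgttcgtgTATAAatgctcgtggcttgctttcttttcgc

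The letters differ by class across the 62 genes with a promoter in the table, searched over 250 bases before the start. A TATAA was present in 59 of 62 (95.2%), against 18.9% of all 35116 promoters of the table. A CCAAT was found in all 6 H1, 15 H2A, 17 H2B and 12 H3 promoters, but in 3 of 12 H4 promoters, beside 32.0% of all promoters. The octamer was found in 14 of 17 H2B and 11 of 15 H2A promoters, in 1 H3 promoter and in no H1 or H4 promoter, beside 1.63% of all. The H1 box was found in 6 of 6 H1 promoters and in none of the other classes, beside 4.82% of all. These matches describe the letters of the promoters and show no binding.

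LSD1 summits were dense at the histone gene clusters and their number did not separate the genotypes. The windows held 24 summits in each parental list, 24 in the first KO1 list and 26 in the second. Over the 460 kb of the windows this was 0.522 summits per 10 kb in both parental lists, and 0.543 ± 0.0307 in KO1 cells (mean ± SD, n = 2). The difference of 0.0217 summits per 10 kb amounts to the 2 additional summits of KO1 replicate 2 (p = 1 by the two-sided exact permutation test, which cannot go below 0.333 with 2 against 2). Without KO1 replicate 1 the difference was 0.0435 and without KO1 replicate 2 it was 0. It reversed to -0.0217 when only the upper 50% of each list was kept.

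The 3 windows differed in density, and each was above the mean of 0.166 summits per 10 kb over chromosomes 1 to 22 and X. The larger HIST1 window held 14, 13, 13 and 13 summits in parental replicates 1 and 2 and KO1 replicates 1 and 2, or 0.482 per 10 kb on average. The smaller HIST1 window was the densest, with 7, 7, 8 and 9 summits in the same order and a mean of 0.775 per 10 kb. Here both KO1 lists lay above both parental lists, by 0.15 summits per 10 kb on average (p = 0.333 by the exact permutation test, as low as this design allows). The HIST2 window held 3, 4, 3 and 4 summits, with a mean of 0.412 per 10 kb. For scale, the chromosomes were cut into pieces of each window's length. Pieces in gaps of the assembly were not left out. A summit of any list was found in 78.4%, 61.5% and 58.2% of pieces, in the order of the windows above. Pieces without a summit lower the mean of 0.166 and the shares that follow. At least as many summits per list were found in 7.19% of 11018 pieces for the larger HIST1 window, 2.67% of 30321 for the smaller one and 14.2% of 35673 for the HIST2 window. Dense stretches of this kind were thus also found outside the histone clusters.

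Windows of the same length directly before and after each histone window served as flanks. The histone windows had 0.533 summits per 10 kb and the flanks 0.323, a difference of 0.209 ± 0.0299 (SD, n = 4 lists) and a ratio of 1.65, with the windows higher in 4 of 4 lists (p = 0.125 by the exact sign permutation test, two-sided, the smallest that 4 lists can give). The sides were unlike. The windows had 2.97 times the density of the flanks before them but 1.14 times that of the flanks after them. For the larger HIST1 window the flank after it was the denser one, with 17, 20, 18 and 18 summits against 14, 13, 13 and 13, while the flank before it held 4 in every list. At the smaller HIST1 window the flank before it held 2, 4, 3 and 4 summits and the flank after it 1, 1, 2 and 0. At the HIST2 window there was 1 summit before in every list, and 2, 2, 2 and 3 after.

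**Figure D1:**
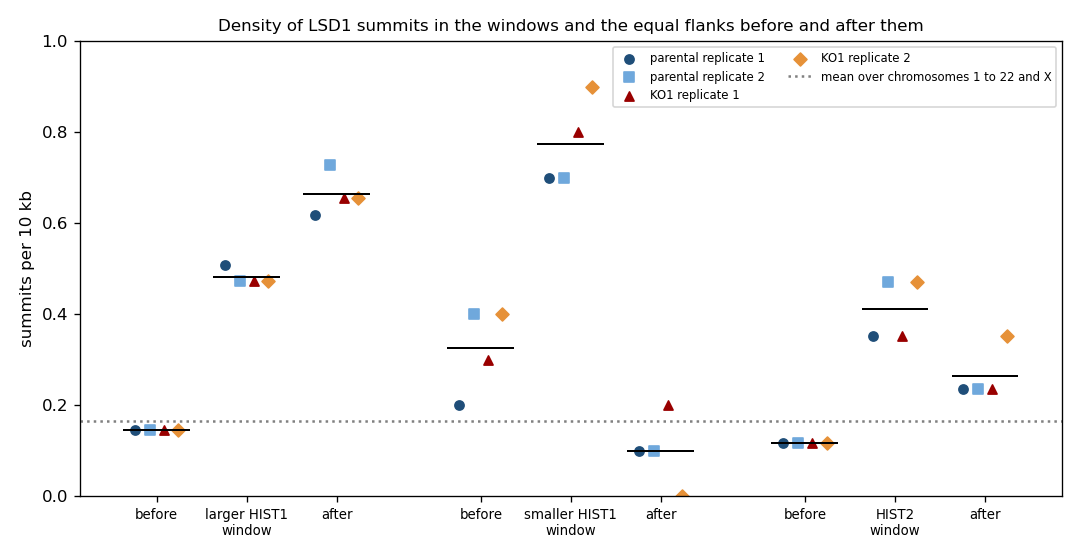
LSD1 summits per 10 kb (y axis) in each histone window and in the flanks of equal length before and after it (x axis), with 1 point per library and a line at the mean of the 4. The smaller HIST1 window is highest at 0.775 per 10 kb, whereas at the larger HIST1 window the flank after it lies above the window. The dotted line is the mean over chromosomes 1 to 22 and X, 0.166.

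Summits in the histone windows also ranked higher within their lists than those in the flanks. The mean percentile of a window's summits exceeded that of the flanks by 10.4 ± 2.12 points (SD, n = 4 lists), by 8.06 in the list with the smallest and 12.8 in that with the largest difference (p = 0.125, exact sign permutation test, two-sided, again the smallest possible). By window, the difference was 15.6 ± 4.62 points at the larger HIST1 window, 15.2 ± 6.93 at the smaller one, both positive in 4 of 4 lists, and 7.94 ± 12.4 at the HIST2 window, positive in 3 of 4. Against the lists as a whole the smaller HIST1 window did not rank high. Its summits had a mean percentile of 46.7, beside 31.6 in its flanks, which held 3 to 5 summits per list. Unlike the density, the rank was higher in the larger HIST1 window than in the dense flank after it, by 15.0 ± 4.47 points.

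**Figure D2:**
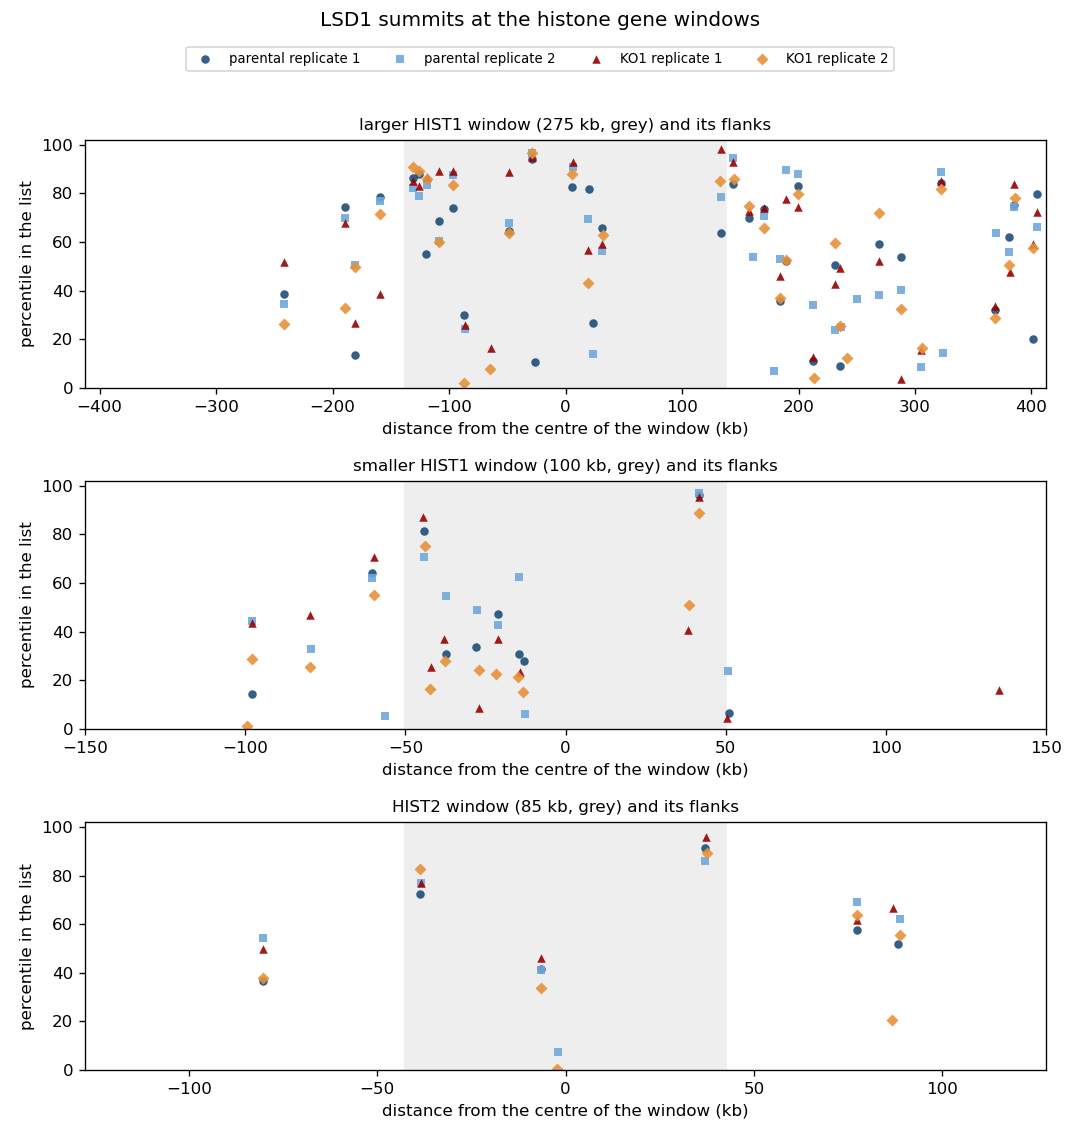
Percentile of each LSD1 summit in its own list (y axis) by distance from the centre of the window in kb (x axis), for the 3 windows (grey) and their flanks, with colour and shape giving the library. Summits of the 4 libraries stack at the strong regions, and the right part of each window has a long stretch without summits, 101 kb in the larger HIST1 window.

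The summits were uneven along the windows. In the larger HIST1 window, 16 of the 17 regions lay before a stretch of 101 kb without a summit in any list (chr6:26184248-26285526), which took 36.8% of the window and ended at a region near its last base. The smaller HIST1 window had such a stretch of 50.7 kb (chr6:27807445-27858119) and the HIST2 window one of 39.1 kb (chr1:149820548-149859633). The median distance between neighbouring regions, these stretches included, was 9.78 kb in the larger HIST1 window, 2.92 kb in the smaller one and 31.7 kb over the 4 regions of the HIST2 window. No peak below the authors' threshold is in the lists, so weaker LSD1 signal in these stretches cannot be read from them.

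Of the 33 regions, 17 were found in all 4 lists, 3 in 3, 8 in 2 and 5 in 1. The share in all 4, 51.5%, was near that of all regions of the genome (52.6%) and that of the flanks (53.8%, 21 of 39). It was 10 of 17 in the larger HIST1 window, 4 of 12 in the smaller one and 3 of 4 in the HIST2 window. Over the 3 windows, the regions of all 4 lists had a median of 78.7 for the mean percentile, beside 60.1 over all 35861 such regions and 55.3 in the flanks. The median was 82.4 in the larger HIST1 window and 77.3 in the HIST2 window, but 58.1 in the smaller HIST1 window, below that of all such regions. In 8 of the 17 (47.1%) the mean percentile was at least 80, against 23.7% genome-wide and 3 of 21 in the flanks. By window these were 6 of 10 in the larger HIST1 window, 1 of 4 in the smaller one and 1 of 3 in the HIST2 window. Regions missing from a list were mostly weak, with a median percentile of 21.9 and a highest of 85.4, beside 19.0 for such regions genome-wide.

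The strongest LSD1 region of the clusters was in the larger HIST1 window at chr6:26123757-26123978. Its percentiles were 94.2 and 96.6 in the parental and 94.8 and 96.6 in the KO1 lists, so the genotypes overlapped and differed by 0.282 points. Within this window the next was chr6:26158408-26158534, with 82.7 and 90.9 in parental and 92.8 and 88.1 in KO1 lists. Both lay in the middle of the window, while the 3 that followed in this window lay nearer its start. The region at chr6:26021783-26021836 had percentiles of 86.2 and 82.1 in parental and 85 and 90.9 in KO1 lists. That at chr6:26026591-26026776 had 88.2 and 79.1 in parental and 82.8 and 89.1 in KO1 lists. That at chr6:26055796-26055951 had 73.8 and 87.4 in parental and 89.1 and 83.4 in KO1 lists. At each of these 5 regions the ranges of the genotypes overlapped, and the differences ran from 0.282 to 5.66 points.

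In the smaller HIST1 window, 4 regions were found in all 4 lists. The strongest, chr6:27861566-27861648, lay close to the end of the window, with percentiles of 96.2 and 97.0 in parental and 95.5 and 88.7 in KO1 lists. At the start of the window, chr6:27775580-27775979 had 81.5 and 70.9 in parental and 87.3 and 75.1 in KO1 lists, which overlapped. The other two were weaker. The region at chr6:27782185-27782701 had 30.7 and 54.5 in parental and 37.1 and 28.0 in KO1 lists. That at chr6:27805106-27805676 had 30.7 and 62.6 in parental and 23.6 and 21.3 in KO1 lists. The window was thus held by strong regions at its ends and weak ones between them.

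The HIST2 window had the same outline, with its stronger regions at the ends. The region at chr1:149859633-149859908 had percentiles of 91.2 and 86.1 in parental and 96.0 and 89.4 in KO1 lists. That at chr1:149783764-149784162 had 72.4 and 77.1 in parental and 76.9 and 82.6 in KO1 lists. Between them, chr1:149815878-149815896 had 41.5 and 41.2 in parental and 46.2 and 33.9 in KO1 lists. The genotypes overlapped at all 3 of these regions. One more region, chr1:149820290-149820548, named after its values were seen, had a summit only in parental replicate 2 and KO1 replicate 2, at percentiles of 7.34 and 0.617.

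**Figure D3:**
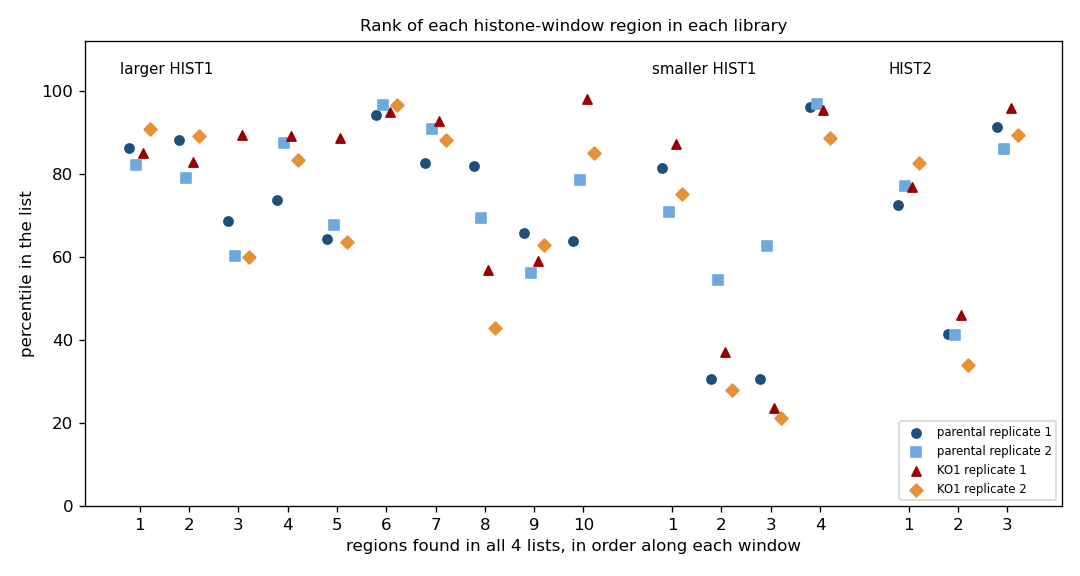
Percentile in each of the 4 lists (y axis) for the 17 histone-window regions found in all of them, in order along each window (x axis). Points of the genotypes overlap at 13 regions; in the larger HIST1 window the third from the end is lower and the last higher in both KO1 lists, and in the smaller one the last and the one before it are lower.

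Over the 17 regions, the rank of LSD1 did not separate the genotypes. The mean percentile was 71.4 and 74.0 in the parental lists and 76.4 and 69.5 in the KO1 lists, so that both parental values lay between the KO1 values. The means were 72.7 ± 1.81 in parental and 73.0 ± 4.90 in KO1 cells (SD, n = 2 each), a difference of 0.284 points (p = 1, two-sided exact permutation test). It was -3.1 without KO1 replicate 1, 3.1 without KO1 replicate 2 and -2.41 when summits up to 1000 bp apart were joined, so no direction can be given. The median of the 17 differences was 3.68 points, with 12 positive and 5 negative. Over all regions of 4 lists the median was -0.578, with 16998 positive and 18863 negative. Of the 12, 9 were in the larger HIST1 window, 1 in the smaller one and 2 in the HIST2 window. The windows did not move together. In the larger HIST1 window the mean was 76.9 ± 0.106 in parental lists and 3.08 points higher by value in KO1 lists, with KO1 replicate 1 at 83.7 and KO1 replicate 2 at 76.3, on either side of the parental lists. In the smaller one it was 65.5 ± 8.12 and 57.1 ± 5.40, and in the HIST2 window 68.2 ± 0.197 and 70.8 ± 3.1. At the HIST2 window both KO1 values, 73.0 and 68.6, lay above both parental values, 68.4 and 68.1 (p = 0.333, two-sided exact permutation test, as low as 2 against 2 can go).

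In the flanks the mean percentile of the 21 regions of all 4 lists was 57.4 ± 4.82 in parental and 53.1 ± 1.48 in KO1 cells. The flanks thus differed by -4.29 points between the genotypes, beside 0.284 points in the histone windows. Within each list, the histone windows exceeded the flanks by 17.4 and 13.1 points in parental and by 22.3 and 17.4 points in KO1 cells. The difference between genotypes in this excess was 4.58 points (p = 0.333, exact permutation test, two-sided, the smallest for 2 against 2), and the closest values of the genotypes were equal at the precision given. It was -0.601 without parental replicate 2 and 8.42 without parental replicate 1. With all 4 libraries kept, it ran from 0.762, with a joining distance of 1000 bp, to 6.80 in the upper 50% of each list. With flanks moved outward it was 0.846. Within 5 Mb around the windows, regions of all 4 lists differed by -1.93, -1.70 and -1.59 points between the genotypes on average, at the larger HIST1, smaller HIST1 and HIST2 windows. The parental lists alone had SDs of 3.25, 3.19 and 4.04 points there, and the neighbourhoods of the HIST1 windows overlap. Over all regions of 4 lists the mean difference was -0.702 points.

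The genotypes did not overlap at 4 of the 17 regions. Both KO1 lists were higher at 1 region, where 19.6% of all regions of 4 lists were, and lower at 3, where 22.4% were, so neither share of the 17 was above the background. At chr6:26285526-26285805, the last region of the larger HIST1 window, percentiles were 63.8 and 78.4 in parental and 98.2 and 85.1 in KO1 lists, a difference of 20.5 points that stayed between 13.2 and 27.9 with each library left out. At chr6:26172123-26172208 they were 81.9 and 69.5 in parental and 56.9 and 43.0 in KO1 lists, a difference of -25.8 points, between -32.7 and -18.8 with each library left out. At chr6:27805106-27805676 the difference was -24.2 points, but from -40.2 to -8.27, since parental replicate 2 alone was high there. At chr6:27861566-27861648 it was -4.50 points, from -7.93 to -1.06. Each of these gave p = 0.333 by the exact permutation test, two-sided, which is as low as 2 against 2 can go. The 4 regions were picked because the genotypes do not overlap. That choice fixes this p and the sign with each library left out, so neither adds support. At the median of the 17 regions, the single replicates differed by 8.46 points in parental and 6.56 points in KO1 cells. The genotype means of 2 lists differed by 4.99 points at the median. A difference of means varies less than one of single lists, so these sizes are not directly comparable. Over all regions of 4 lists the same medians were 9.13, 9.13 and 8.25 points.

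**Figure D4:**
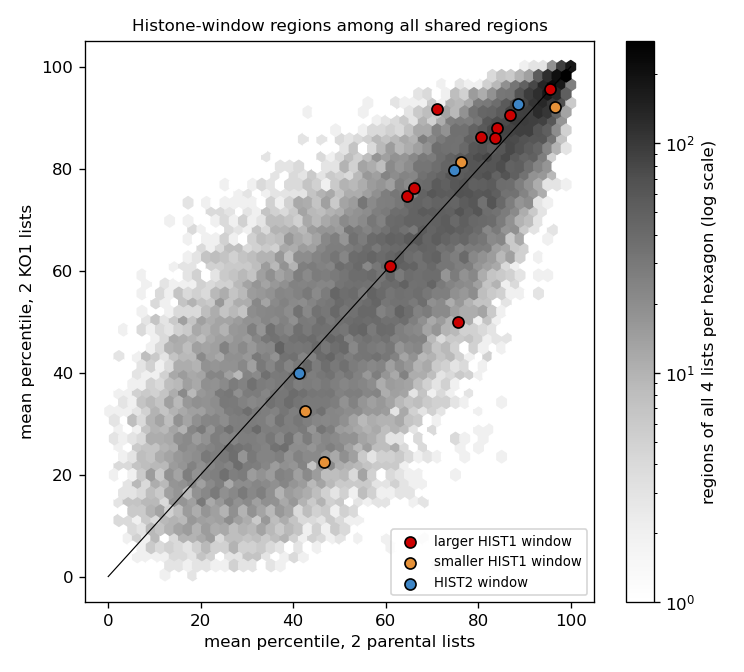
Mean percentile in the 2 KO1 lists (y axis) against that in the 2 parental lists (x axis) for all 35861 regions of 4 lists, in grey on a log scale, with the 17 histone-window regions in colour. The coloured points lie within the grey cloud and mostly in its upper part; the line marks equal values.

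A few regions of the clusters were found in both lists of 1 genotype and in no list of the other, none of them above the median of its list. Both parental lists and no KO1 list had a summit at 2 of the 33 regions (6.06% of them, beside 4.24% of all regions). They were chr6:26175843-26176298, at percentiles of 26.6 and 13.8, and chr6:27792125-27792254, at 33.7 and 49.1. Both KO1 lists and no parental list had one at 3 regions (9.09%, beside 3.62%). These were chr6:26088044-26088383, at 16.6 and 7.66, chr6:27777759-27777870, at 25.7 and 16.6, and chr6:27792853-27792908, at 8.49 and 24.2. All 3 lay in the HIST1 windows. Within 5 Mb of the larger and the smaller HIST1 window, regions of KO1 lists only made up 6.75% and 5.6%. Those of parental lists only made up 2.76% and 1.87% there. None of the 5 histone-window regions was in the upper 50% of any list. The parental region at chr6:27792125-27792254 and the KO1 region at chr6:27792853-27792908 lay 599 bp apart, so with a joining distance of 1000 bp they became 1 region of all 4 lists. That distance also made a KO1 region of 2 single summits 526 bp apart, at 27858119 in KO1 replicate 1 (percentile 40.9) and at 27858645 in KO1 replicate 2 (percentile 50.9), which were picked out after their values were seen. The number of KO1 regions was 3 at either distance, and that of parental regions 2 and 1.

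Such neighbours were frequent at the histone clusters. Of the 16 regions missing from some list, 6 (37.5%) had a summit of every missing list within 1 kb and 9 (56.2%) within 2 kb. The shares were 11.1% and 33.3% in the flanks and 12.6% and 21.4% over all 32287 such regions. The 6 regions stand in pairs whose members are each other's near neighbour, so each pair counts for both members. The windows held 0.533 summits per 10 kb, beside a mean of 0.166 over the chromosomes. The part of this density in the shares was not tested. The limits of 1 kb and 2 kb, and the regions named next, were chosen after the values were seen. At the start of the larger HIST1 window, a summit of parental replicate 1 at 26032390 (percentile 55.1) lay 1054 bp from a region of the other 3 lists (chr6:26033444-26033899, percentiles 83.5, 86.8 and 85.8). In that window too, chr6:26065631-26065665 was found in parental replicate 1 and KO1 replicate 2 and chr6:26066334-26066345, 669 bp away, in the other two lists. The positions of a region's summits spanned 185 bp at the median of the 17 regions. The median was 94.0 bp in the flanks and 103 bp over all regions of 4 lists. Within 5 Mb of the larger HIST1, smaller HIST1 and HIST2 windows it was 155, 135.5 and 103 bp. The span was 164.5 bp in the larger HIST1 window itself and 275 bp in the HIST2 window. In the smaller HIST1 window this span was 458 bp at the median of its 4 regions. Presence and absence in a list therefore depend, at these clusters, on how far apart summits may be to count as 1 region.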

How the data were processed

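The processed files were 4 lists of LSD1 summits, 2 from parental and 2 from RCOR2-KO1 cells; the 4 IgG libraries served the authors as input and are not analysed here. The submitters' processing notes name FastQC 0.11.2, Bowtie2 2.3.3.1, Picard, MACS2 2.1.0 and hg19, without their settings. The authors deposited for each summit the −log10 of a p or q value, whose lowest value per list was 1.31 to 1.40. Lists held 47354 to 54467 summits, and the read depth is unknown. Percentiles, regions (joined at most 500 bp apart, placed by their midpoint), densities and exact permutation tests were computed with Python 3.11.15, pandas 2.3.3 and numpy 2.4.6, and figures with matplotlib 3.10.9. The steps were tested on simulated lists. In each window, the 5 regions of all 4 lists with the highest mean percentile, those found in 1 genotype only and those whose genotypes did not overlap were to be described singly. The windows, motifs and tests were chosen with earlier results of these data known. Promoter sequences are RefSeq's (GRCh38.p14). Alternatives were other joining distances, the upper 50% of each list, lists shortened to the shortest, other flanks and percentiles, wider windows, single windows, each library left out and the replicate number as a block.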

Additional observations from a re-analysis of the deposited data

How the results depend on the processing

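Of 49 alternatives that kept all 4 libraries, 42 left the direction, or the count within 1.5 times, as reported. The difference in summits per 10 kb between genotypes was -0.0217 in the upper 50% of each list. The mean percentile difference, 0.284 points, was -2.41 with a joining distance of 1000 bp and -8.45 in the smaller HIST1 window by itself. Regions of parental lists only numbered 1 at 1000 bp, where one joined a KO1 region 599 bp away, and 0 in the upper 50%, those of KO1 lists only 0 in the upper 50%, and regions without overlap 2 in the upper 50%, where fewer summits remain by construction. The cause of the change to -2.41 was not tested. With each library left out in turn, the density difference ranged from 0 to 0.0435, the percentile difference from -3.1 to 3.1, and its excess over the flanks from -0.601 to 8.42. Regions of parental lists only then ranged from 3 to 4, those of KO1 lists only from 3 to 5 and those without overlap from 9 to 12, since a single library stands for a genotype. Without overlap were then 52.9% to 66.7% of the histone regions of all remaining lists, beside 69.8% to 71.6% of all such regions. Parental lists only held 9.09% to 12.1% of histone regions, beside 7.41% to 13.6% of all, and KO1 lists only 9.09% to 15.6%, beside 5.68% to 9.19%. The excess in density over the flanks, 0.209 per 10 kb, was 0.353 with the flanks before, 0.0652 with the flanks after and 0.378 with flanks moved outward. Replicate numbers did not pair the libraries (correlation 0.00722 across regions between the replicate differences of the genotypes). A replicate block left the density difference at 0.0217, the percentile difference at 0.284 and its excess over the flanks at 4.58 by construction. These alternatives are counted among the 42 but add no support. With such a block, 0.5 is the lowest exact p that 2 pairs can give. Lists cut to their upper 50% kept their percentiles; shortened lists were ranked anew. The unknown depth limits which changes of rank can be seen.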

Other observations

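In the flanks of the larger HIST1 window, 17 regions were found in all 4 lists. Both KO1 lists were below both parental lists at 5 of them and above at 1, beside 22.4% and 19.6% of all regions of 4 lists. The mean percentile of these 17 regions was 56.5 and 61.6 in the parental and 53.6 and 53.4 in the KO1 lists, a difference of -5.55 points (p = 0.333, two-sided exact permutation test, as low as 2 against 2 can go). The strongest flanking region, with a mean percentile of 89.3, lay at chr6:26296489-26296689, just after the window, and was chosen after its values were seen.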
